A study of Mus musculus with 6 samples.

Results

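The cell cycle inhibitors and pocket proteins described here are 10 genes of the 56748 in the deposited table, taken by name: Cdkn1a, Cdkn1b, Cdkn2c, Cdkn2d, Rb1, Rbl1, Rbl2, Ccng1, Ccng2 and Gadd45b. All 10 had a mean of at least 1 FPKM (fragments relative to the gene's length and to a library size) over the libraries and were among the 12678 genes tested. RNA was sequenced from whole hearts of mice at postnatal day 1 in 6 libraries. The 3 FF libraries came from control mice with the genotype FF for Kdm5b, labelled Flox. The 3 cKO libraries came from mice labelled as a cardiac specific knockout of Kdm5b, which encodes a histone H3 lysine 4 demethylase. No source used here names the Cre driver, says whether FF mice carry Cre, or says whether each library is 1 animal, so the p-values cover only the spread between samples, which may be technical. The study asked how Kdm5b bears on cell cycle genes in heart muscle cells. A whole heart also holds other cell types, so fewer cells of a type and less RNA per cell cannot be told apart.

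Entry into S phase is gated by the pocket proteins Rb1, Rbl1 (p107) and Rbl2 (p130), which bind E2F factors and hold their target genes down until cyclin-dependent kinases phosphorylate them. The CIP/KIP inhibitors p21 (Cdkn1a) and p27 (Cdkn1b) act on complexes of cyclins with several of these kinases, while the INK4 inhibitors p18 (Cdkn2c) and p19 (Cdkn2d) act on the kinases that pair with D cyclins. Heart muscle cells of mice leave the cell cycle in the days after birth. Rbl2 is known as the pocket protein of resting cells, where it takes part in the DREAM repressor complex, and Rbl1 as an E2F target that is high in cycling cells.

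Reads assigned to genes, worked out from the FPKM, came to 15658893 to 20339926 per library. FF replicate 3 stood apart, with a correlation across genes of 0.880 to 0.909 with the other libraries, against 0.954 to 0.984 among those. All 13 thymocyte markers were highest in it, with a summed level of 345 FPKM against 1.38 to 2.33 FPKM elsewhere, and none of the 13 was at 0 in all of the other 5 libraries. The 8 heart muscle markers were abundant in every library, with a sum of 11200 to 12500 FPKM in FF and 12200 to 14300 FPKM in cKO. Of the 8, however, 5 were lowest in FF replicate 3 and 0 were highest in it. All 5 epicardial markers were highest in FF replicate 3, with a sum of 54.7 FPKM against 17.6 to 24.7 FPKM elsewhere. The same held for 5 of 7 macrophage markers. Summed neutrophil markers ran from 14.5 to 24.2 FPKM in FF and from 7.71 to 9.65 FPKM in cKO, and 4 of 7 were lower in every cKO library. Macrophage markers ran from 52.7 to 113 FPKM in FF and from 39.2 to 47.7 FPKM in cKO, also with 4 of 7 lower in every cKO library. Endothelial markers ran from 299 to 430 FPKM in FF and from 242 to 300 FPKM in cKO, with 3 of 7 lower in every cKO library. Erythroid markers ran from 753 to 1550 FPKM in FF and from 891 to 1100 FPKM in cKO, and 4 of 7 were higher in every cKO library. The part of these cells in the results below was not tested. Kdm5b stood at 3.19, 3.25 and 3.92 FPKM in FF and at 2.80, 3.03 and 2.75 FPKM in cKO libraries. Its log2 difference was -0.20 (limma adjusted p = 0.447). All 3 cKO values were lower (exact two-sided permutation p = 0.1, the smallest that 3 against 3 allows), but transcripts of the whole heart make this a coarse check of the labels.

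The 10 genes differed in direction between cKO and FF hearts. Gadd45b, Ccng2, Rbl2, Cdkn1b and Cdkn2d were higher in every cKO library than in every FF library, and Cdkn1a was lower. Rbl1 was lower than in FF replicates 1 and 2 alone, and Cdkn2c, Rb1 and Ccng1 had overlapping groups. These 6 of 10 genes without overlap compare with 28.0% of all genes tested, the 5 higher with 13.5% and the 1 lower with 14.5%. Without FF replicate 3 the groups of 8 of the 10 did not overlap, where 52.1% of all genes did not. With all 6 libraries 0 of the 10 passed the threshold in limma, a moderated linear model on log2(FPKM + 1), at a Benjamini-Hochberg adjusted p of 0.05 over all genes tested, where 0.166% of all genes did. At an unadjusted p under 0.05 in limma the count was 6 of 10, against 17.9% of all genes. Without FF replicate 3, 5 of the 10 rose and 1 fell, against 13.6% of all genes called in that fit, 6.47% higher and 7.12% lower. Those 6 calls rest on both remaining FF libraries: with FF replicate 1 also left out 0 members and 0 genes of the table passed, and with FF replicate 2 also left out 0 members and 18 genes. Ccng2 then had a limma adjusted p = 0.0548 and 0.0628. With FF replicate 3 and cKO replicate 3 both left out, only Ccng2 and Gadd45b of the members passed. The median difference of the 10 genes was 0.35 with all libraries and 0.26 without FF replicate 3, where all genes tested had 0.01 and -0.01.

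**Figure D1:**
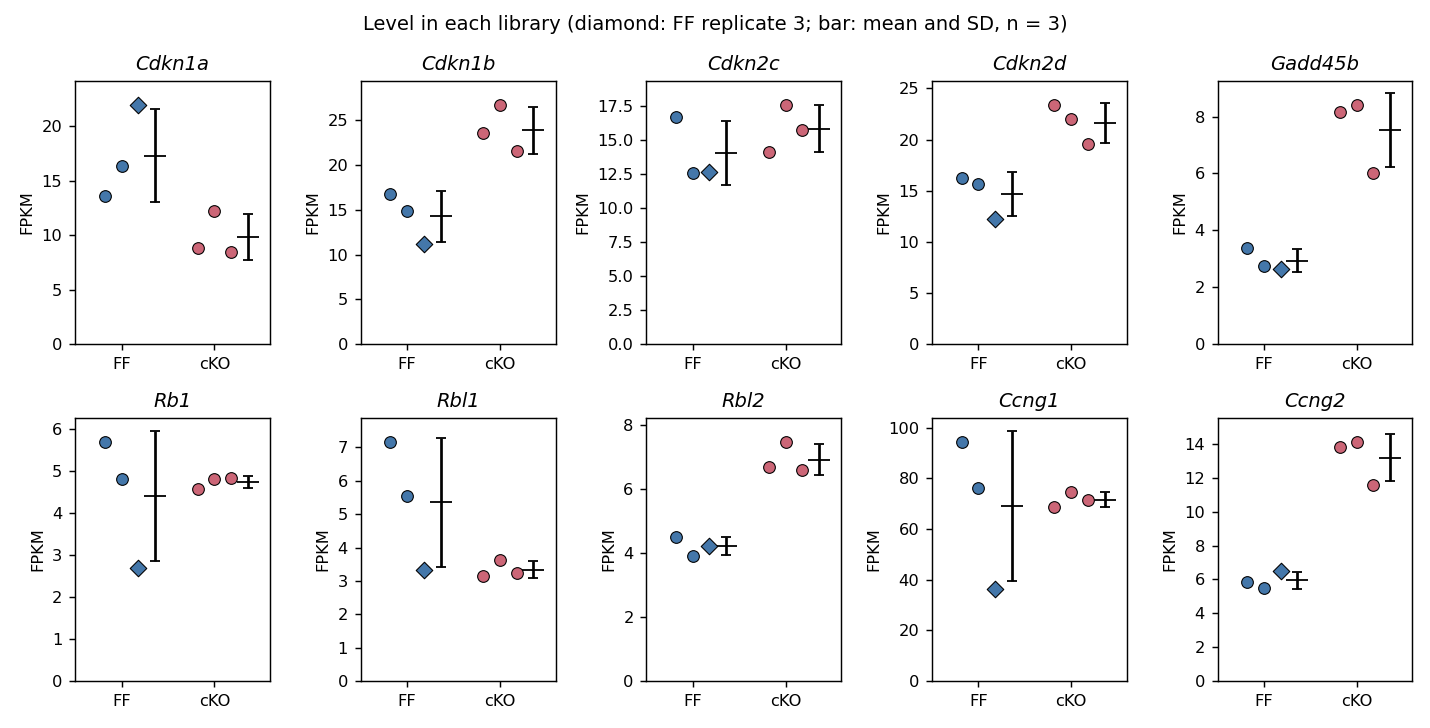
Level of each of the 10 genes in FPKM (vertical axes, from 0) in the 3 FF and 3 cKO libraries, with diamonds for FF replicate 3 and bars for the group mean and SD. The groups are apart at Cdkn1a, Cdkn1b, Cdkn2d, Gadd45b, Rbl2 and Ccng2, while FF replicate 3 lies at 36.4 FPKM for Ccng1, below the 5 other libraries.

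Levels per length are given next as a description. In FF hearts Ccng1 led with 69.0 FPKM, followed by Cdkn1a, Cdkn2d, Cdkn1b and Cdkn2c at 17.3, 14.7, 14.3 and 14.0 FPKM. Ranges of those 4 genes overlapped, so their order there is not resolved. Ccng2, Rbl1, Rb1 and Rbl2 came next at 5.95, 5.35, 4.40 and 4.21 FPKM, each overlapping the next in range, and Gadd45b had the lowest mean, 2.93 FPKM. In cKO hearts Ccng1 again led at 71.6 FPKM, and Cdkn1b (23.9 FPKM) and Cdkn2d (21.6 FPKM) stood above Cdkn2c (15.8 FPKM) in every library. Cdkn1a, at 9.84 FPKM, was below Cdkn2c in every cKO library, and Rbl1 was the lowest of the 10 at 3.34 FPKM.

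Among the CIP/KIP inhibitors, p27 and p21 transcripts differed in opposite directions. Cdkn1b (ENSMUSG00000003031, chromosome 6, 134897364 to 134902476, plus strand) stood at 16.8, 14.9 and 11.2 FPKM in FF and at 23.5, 26.7 and 21.5 FPKM in cKO libraries. Every cKO value lay above every FF value, and FF replicate 3 was the lowest. Means of 14.3 ± 2.87 for FF and 23.9 ± 2.61 FPKM for cKO (SD, n = 3 each) gave a 1.68-fold ratio. Its log2 difference was 0.72 (SE 0.18, limma adjusted p = 0.115), and without FF replicate 3 it rose by 0.56 (SE 0.12, limma adjusted p = 0.0302). That call was lost without cKO replicate 2 (limma adjusted p = 0.0665) or cKO replicate 3 (limma adjusted p = 0.0552), and without FF replicate 1 (0.108) or FF replicate 2 (0.137). Cdkn1a (ENSMUSG00000023067, chromosome 17, 29309950 to 29319701, plus strand), the p53-induced inhibitor, stood at 13.6, 16.3 and 21.9 FPKM in FF and at 8.84, 12.2 and 8.44 FPKM in cKO libraries. All cKO values were below all FF values, with FF replicate 3 the highest. The log2 difference was -0.75 (95% interval -1.26 to -0.24, limma adjusted p = 0.155), and -0.57 without FF replicate 3 (limma adjusted p = 0.0628), short of the threshold both times. It passed with library weights (limma adjusted p = 0.00548 with all libraries and 0.0426 without FF replicate 3). It also passed without FF replicate 3 with a filter at a mean FPKM of at least 5 (limma adjusted p = 0.0366) or with cKO replicate 2 left out as well (limma adjusted p = 0.0348).

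The summed level of the pair was 31.6 ± 1.37 for FF and 33.8 ± 4.66 FPKM for cKO (SD, n = 3 each). The Cdkn1b to Cdkn1a ratio, taken per length within a library, was 1.23, 0.912 and 0.508 in FF and 2.67, 2.18 and 2.55 in cKO. Cdkn1c (p57), the third member of the family, an imprinted inhibitor of embryonic tissues, was at 23.4, 19.8 and 39.1 FPKM in FF and 32.7, 32.0 and 26.8 FPKM in cKO libraries. With FF replicate 3 the groups overlapped (log2 difference 0.20, limma adjusted p = 0.726), and without it Cdkn1c rose by 0.48 (limma adjusted p = 0.0498).

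Of the INK4 pair, p19 transcripts were higher in every cKO library, and those of p18 had overlapping groups. Cdkn2d (ENSMUSG00000096472, chromosome 9, 21199706 to 21202703, minus strand) stood at 16.3, 15.7 and 12.2 FPKM in FF and at 23.4, 22.0 and 19.5 FPKM in cKO libraries. The groups were apart, and FF replicate 3 was again lowest. The means of 14.7 ± 2.18 and 21.6 ± 1.96 FPKM (SD, n = 3 each) gave a log2 difference of 0.53 (SE 0.15, limma adjusted p = 0.149), and without FF replicate 3 Cdkn2d rose by 0.41 (SE 0.10, limma adjusted p = 0.0454). That call was lost when any 1 of the remaining 5 libraries was left out, with limma adjusted p from 0.0638 to 0.171. Cdkn2c (ENSMUSG00000028551, chromosome 4, 109518073 to 109524386, minus strand) stood at 16.7, 12.6 and 12.6 FPKM in FF and at 14.1, 17.6 and 15.7 FPKM in cKO libraries, with a log2 difference of 0.17 (95% interval -0.20 to 0.54). The other INK4 genes, Cdkn2a and Cdkn2b, were under the filter, with at most 0.134 and 0.464 FPKM in any library.

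The 3 pocket protein genes each behaved differently: Rbl2 was higher in all cKO libraries, Rbl1 was lower than in 2 of the 3 FF libraries, and Rb1 overlapped. Rbl2 (ENSMUSG00000031666, chromosome 8, 91796685 to 91850472, plus strand) stood at 4.49, 3.91 and 4.23 FPKM in FF and at 6.68, 7.48 and 6.60 FPKM in cKO libraries. FF replicate 3 lay between the other FF values, and the lowest cKO value was above the highest FF value. Rbl2 was 1.64-fold higher in cKO, with a log2 difference of 0.60 (SE 0.11, limma adjusted p = 0.0748), and it rose by 0.61 without FF replicate 3 (SE 0.10, limma adjusted p = 0.0182). Leaving out cKO replicate 3 as well gave a limma adjusted p = 0.0541, FF replicate 1 gave 0.0841 and FF replicate 2 gave 0.1. The gene overlaps Aktip on the opposite strand over 12061 bases, and reads of both cannot be told apart where the counting did not use strand. Aktip itself was also higher in every cKO library than in every FF library, with a log2 difference of 0.16 (SE 0.11, limma adjusted p = 0.517).

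Rbl1 (ENSMUSG00000027641, chromosome 2, 156987813 to 157046454, minus strand) stood at 7.17, 5.53 and 3.34 FPKM in FF and at 3.16, 3.61 and 3.24 FPKM in cKO libraries. FF replicate 3 lay inside the cKO range, and the other FF libraries were above it. The log2 difference was -0.50 (95% interval -1.06 to 0.06, limma adjusted p = 0.326) with all libraries. Without FF replicate 3 Rbl1 fell by 0.75 (SE 0.13, limma adjusted p = 0.0174), to 0.526 times the level of FF replicates 1 and 2. That limma adjusted p was 0.0566 without cKO replicate 3, 0.107 without FF replicate 1 and 0.0663 without FF replicate 2. Rb1 (ENSMUSG00000022105, chromosome 14, 73421113 to 73563262, minus strand) stood at 5.71, 4.82 and 2.68 FPKM in FF and at 4.58, 4.81 and 4.83 FPKM in cKO libraries. Its direction turned with FF replicate 3, from 0.13 (95% interval -0.41 to 0.67) to -0.12 (95% interval -0.37 to 0.12) without it. Rb1 overlaps Rcbtb2 and Lpar6 on the opposite strand.

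Within a library the Rbl2 to Rbl1 ratio was 0.625, 0.708 and 1.27 in FF and 2.11, 2.07 and 2.03 in cKO. Rbl1 transcripts were thus the more abundant in FF replicates 1 and 2, and Rbl2 transcripts in FF replicate 3 and all cKO libraries. Summed over the 3 pocket protein genes the level was 14.0 ± 3.57 for FF and 15.0 ± 0.794 FPKM for cKO (SD, n = 3 each). Rb1 made up a share of 0.262 to 0.338 of that sum in FF and 0.303 to 0.329 in cKO.

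**Figure D2:**
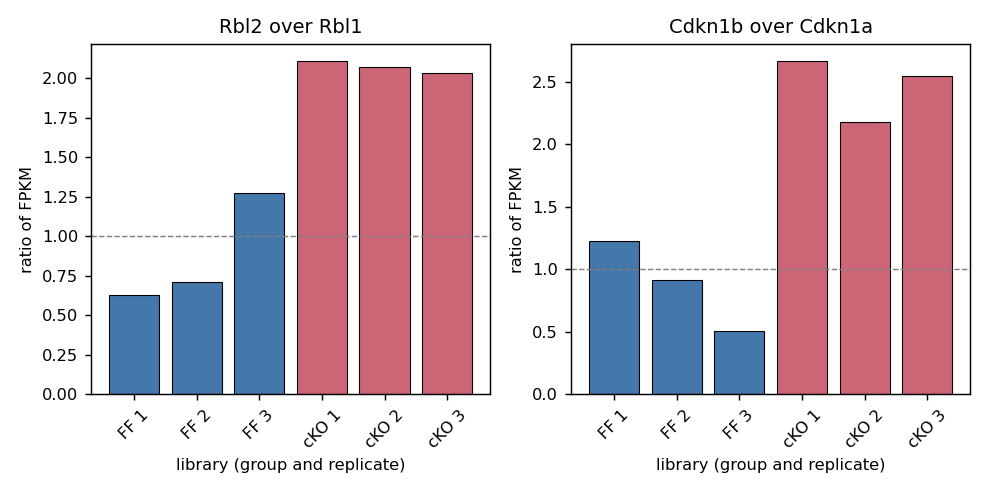
Ratio of FPKM of Rbl2 to Rbl1 and of Cdkn1b to Cdkn1a (vertical axes, from 0) in each of the 6 libraries, with a dashed line at equal levels. All 3 cKO libraries lie at 2.03 or more in both ratios, and no FF library exceeds 1.27.

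The promoters of Rbl1 and Rbl2 are shown because these pocket protein genes differed in opposite directions without FF replicate 3, with which Rbl1 had overlapping groups. They are RefSeq sequences of build GRCm38.p6, 250 bases before to 50 bases after the start, written 5′ to 3′ on the strand of the gene. Capitals mark matches to the motifs searched.
Rbl1 (chr2:157204485-157204784, minus strand): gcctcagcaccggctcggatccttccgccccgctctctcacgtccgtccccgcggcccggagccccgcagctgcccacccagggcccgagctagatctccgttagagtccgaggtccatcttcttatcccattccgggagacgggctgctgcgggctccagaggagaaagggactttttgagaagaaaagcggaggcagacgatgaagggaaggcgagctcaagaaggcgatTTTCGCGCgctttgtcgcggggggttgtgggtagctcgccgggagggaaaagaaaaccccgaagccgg
Rbl2 (chr8:91069807-91070106, plus strand): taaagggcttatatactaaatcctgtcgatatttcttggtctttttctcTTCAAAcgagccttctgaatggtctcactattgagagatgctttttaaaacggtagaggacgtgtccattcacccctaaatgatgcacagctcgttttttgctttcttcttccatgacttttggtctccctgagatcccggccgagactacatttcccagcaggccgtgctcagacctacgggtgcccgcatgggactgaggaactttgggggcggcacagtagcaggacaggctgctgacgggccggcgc
Rbl1 held the E2F letters TTTCGCGC 18 bases before the start, a match found in 0.323% of 32851 promoters of the same length. This spelling and TTTGCCGC (0.441% of promoters, in no member) were added after values were seen. Rbl2 held TTCAAA, the reverse complement of the CHR letters TTTGAA, 201 bases before the start, and 17.9% of all promoters hold a CHR match on either strand. The GC content was 64.0% for Rbl1 and 50.7% for Rbl2, against a median of 52.7% over all promoters. A match is a description of letters and shows no binding.

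Ccng2 and Gadd45b had the largest differences of the 10 genes. Ccng2 (ENSMUSG00000029385, chromosome 5, 93415116 to 93424090, plus strand) encodes cyclin G2, an unconventional cyclin that is high in resting cells and slows the cycle. It stood at 5.83, 5.51 and 6.50 FPKM in FF and at 13.8, 14.1 and 11.6 FPKM in cKO libraries. FF replicate 3 was the highest of the FF values and still under the lowest cKO value. The means of 5.95 ± 0.505 and 13.2 ± 1.41 FPKM (SD, n = 3 each) gave a 2.22-fold ratio and a log2 difference of 1.03 (SE 0.13, limma adjusted p = 0.0555). Without FF replicate 3 Ccng2 rose by 1.08 (SE 0.11, limma adjusted p = 0.00802). Ccng1 (ENSMUSG00000020326, chromosome 11, 40639379 to 40646138, minus strand), the p53-induced cyclin G1, was the most abundant of the 10. It stood at 94.5, 76.0 and 36.4 FPKM in FF and at 68.8, 74.8 and 71.3 FPKM in cKO libraries. Its log2 difference of 0.16 (95% interval -0.64 to 0.95) turned to -0.24 (95% interval -0.52 to 0.04, limma adjusted p = 0.205) without FF replicate 3. Of the G-type cyclins, then, cyclin G2 alone had groups that stood apart with all 6 libraries. The Ccng2 to Ccng1 ratio within a library was 0.0617, 0.0725 and 0.178 in FF and 0.201, 0.189 and 0.162 in cKO. FF replicate 3 lay inside the cKO range of this ratio.

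Gadd45b (ENSMUSG00000015312, chromosome 10, 80765907 to 80768038, plus strand) encodes a stress-induced protein that can restrain the kinase Cdk1 and feeds into MAP kinase signalling. It stood at 3.39, 2.75 and 2.63 FPKM in FF and at 8.16, 8.41 and 6.03 FPKM in cKO libraries. The highest FF value lay below the lowest cKO value. It was 2.57-fold higher in cKO, with a log2 difference of 1.11 (SE 0.16, limma adjusted p = 0.0579), and rose by 1.06 without FF replicate 3 (SE 0.15, limma adjusted p = 0.0132). With FF replicate 1 or FF replicate 2 also left out the limma adjusted p was 0.0701 or 0.0795. Only 70 to 264 reads per library lie behind these values, the fewest of the 10 genes. For the second FF library the counting interval (95%, exact Poisson, counting error only) was 2.15 to 3.48 FPKM. Its paralogues had overlapping groups, with log2 differences of -0.07 (SE 0.20) for Gadd45a and -0.27 (SE 0.19) for Gadd45g.

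The promoters of these 2 genes are given because their differences were the largest, in the same form as above.
Ccng2 (chr5:93267323-93267622, plus strand): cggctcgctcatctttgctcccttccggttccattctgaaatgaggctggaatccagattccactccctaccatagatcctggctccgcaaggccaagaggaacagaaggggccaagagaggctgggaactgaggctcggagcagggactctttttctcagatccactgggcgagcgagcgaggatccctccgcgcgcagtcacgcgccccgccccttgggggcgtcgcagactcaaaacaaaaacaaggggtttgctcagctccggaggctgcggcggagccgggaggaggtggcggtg
Gadd45b (chr10:80929841-80930140, plus strand): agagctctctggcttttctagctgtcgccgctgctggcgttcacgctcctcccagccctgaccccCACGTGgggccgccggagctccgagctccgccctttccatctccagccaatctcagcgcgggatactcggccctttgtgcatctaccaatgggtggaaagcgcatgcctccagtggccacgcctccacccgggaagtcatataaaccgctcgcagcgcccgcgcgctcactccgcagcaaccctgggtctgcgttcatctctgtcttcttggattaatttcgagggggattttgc
Gadd45b held the E-box CACGTG 185 bases before the start, as 7.15% of promoters do, and Cdkn2c held it in 1 of its promoters. Ccng2 held none of the 8 letter sets searched on both strands. GTAAACA (FOXO, 3.65% of promoters), TGACGTCA (CRE, 1.79%) and the E2F letters TTTCCCGC (1.07%) and TTTGGCGC (0.514%) matched in none of the 9 members with a promoter in the RefSeq table. No match says only that these letters are not in this window.

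**Figure D3:**
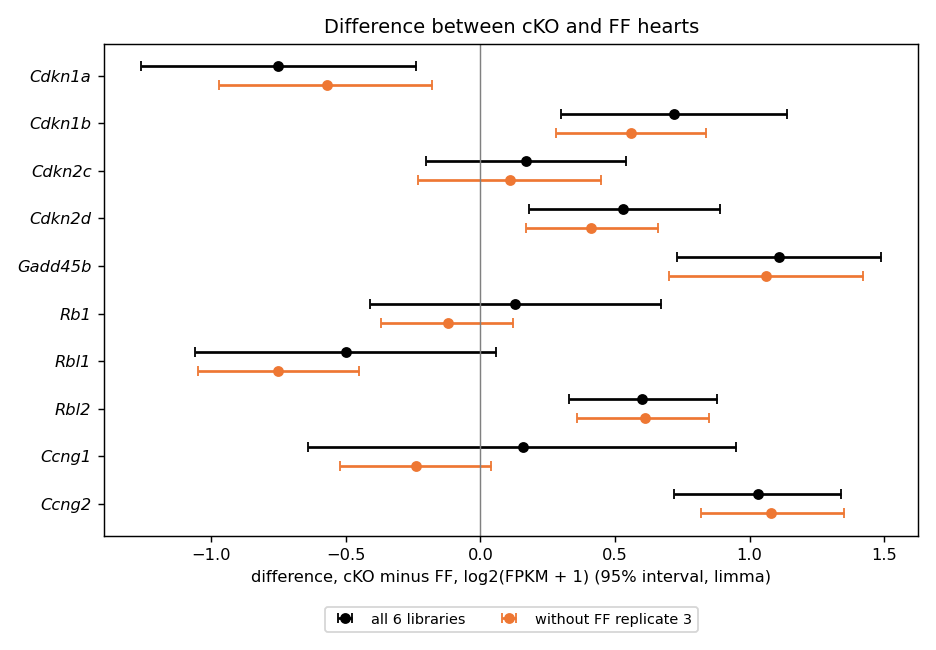
Difference between cKO and FF on the log2(FPKM + 1) scale (horizontal axis) with its 95% interval from limma, for all 6 libraries (black) and without FF replicate 3 (orange). Ccng2 and Gadd45b lie near 1.1 in both fits, Rb1 and Ccng1 change sign, and the interval of Rbl1 leaves 0 without that library.

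Other genes of the pathway were taken from lists, and with all 6 libraries 0 of their 133 tested genes passed the threshold in limma. Without FF replicate 3, 28 of 135 did, 11 higher and 17 lower, or 20.7% against 13.6% of all genes. The list of D and E cyclins with their kinases, Ccna2 included, had 0 higher and 4 lower of 9, with a median of -0.29. Ccnd1, the cyclin D1 that INK4 inhibitors oppose, stood at 30.8, 25.9 and 26.8 FPKM in FF and at 16.7, 17.6 and 17.0 FPKM in cKO libraries. It fell by 0.69 on the log2 scale without FF replicate 3 (limma adjusted p = 0.0136). The kinase gene Cdk6 and the cyclin E genes Ccne1 and Ccne2 fell in the same fit, with differences of -0.57, -0.87 and -1.01, though Ccne2 stood at 0.822 FPKM in FF replicate 3, below every cKO library. The 6 markers of proliferating cells, outside these lists, were split. Without FF replicate 3 Ccnb1 rose by 0.78, while Pcna fell by 1.08 and Mcm5 by 1.21 (limma adjusted p = 0.0366, 0.0149 and 0.00658). These genes also had groups apart with all 6 libraries, and Mki67, Top2a and Cdk1 had overlapping groups. Of 10 E2F and DP factors 2 fell, E2f1 by 1.05 (limma adjusted p = 0.0128) and its partner Tfdp1 by 0.47 (limma adjusted p = 0.0319). The MuvB core takes part in DREAM with Rbl1 or Rbl2. Of the 9 genes of this core and its partners, 1 fell and 1 rose, both of them partners. The activator Mybl2 fell by 0.82, and Dyrk1b, a kinase of resting cells related to the kinase that assembles DREAM, rose by 0.80 (limma adjusted p = 0.0134 and 0.0168). Dyrk1b was highest in FF replicate 3, at 10.7 FPKM, and its groups overlapped with that library.

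FOXO factors induce Cdkn1b, Rbl2 and Ccng2 in resting cells. Among 21 other FOXO genes tested, 4 rose and 2 fell without FF replicate 3, with a median of 0.26. Both directions together made 28.6%, against 13.6% of all genes, where 6.47% of all genes were higher and 7.12% lower. The remaining genes of this list were short of the threshold in that fit. Pik3ip1, an inhibitor of PI3 kinase, stood at 4.61, 4.41 and 6.53 FPKM in FF and at 17.0, 25.4 and 16.4 FPKM in cKO libraries, and rose by 1.88 (limma adjusted p = 0.00702). The ubiquitin ligase Fbxo32 rose by 1.15, the thioredoxin-binding Txnip by 0.99 and the factor Foxo3 by 0.78 (limma adjusted p = 0.00802, 0.00802 and 0.0243). The 2 that fell were Klf2, an endothelial factor, and Foxo6. With all 6 libraries these genes were short of the threshold, Pik3ip1 at a limma adjusted p = 0.0555.

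The p53 protein drives Cdkn1a and Ccng1. Of 21 other target genes tested without FF replicate 3, the repair gene Xpc rose and 0 fell, or 4.76% against 13.6% of all genes, with a median of 0.03. Of 10 regulators 0 rose and the checkpoint kinase Chek1 fell by 1.07 (limma adjusted p = 0.0128), with FF replicate 3 at 1.06 FPKM, below every cKO library. Trp53 had a log2 difference of 0.29 (SE 0.11, limma adjusted p = 0.123) without FF replicate 3 and 0.00 (SE 0.26) with it. Mdm2 had -0.22 (SE 0.08, limma adjusted p = 0.123) without that library and -0.04 (SE 0.17) with it. Among 16 genes of p27 and p21 turnover 2 rose and 2 fell without FF replicate 3. Dtl, the adaptor of the ligase that degrades p21, fell by 0.98 and Rnf123, a ligase for p27, rose by 0.44 (limma adjusted p = 0.0138 and 0.0431). Ddb1, of the same ligase as Dtl, went the other way and rose by 0.42, while Rbx1 fell by 0.45 (limma adjusted p = 0.0474 and 0.0426). Of 19 other antiproliferative genes Pdcd4 rose and 4 fell, among them Klf4 by 1.17, the polo-like kinase Plk3 by 0.77 and Pkmyt1, which inhibits Cdk1, by 0.61 (limma adjusted p = 0.0122, 0.0142 and 0.0173). TGF-beta and SMAD inputs, with 19 genes, gave 1 higher (Mxi1, a Myc antagonist) and 1 lower (Id1). Without FF replicate 3 the share called was 44.4% for the cyclin list, 20% for E2F and DP factors and 22.2% for the MuvB list. It was 10% for p53 regulators, 25% for turnover genes, 26.3% for antiproliferative genes and 10.5% for TGF-beta inputs, against 13.6% of all genes. These lists were chosen with earlier results of these data known, so their counts are a description.

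**Figure D4:**
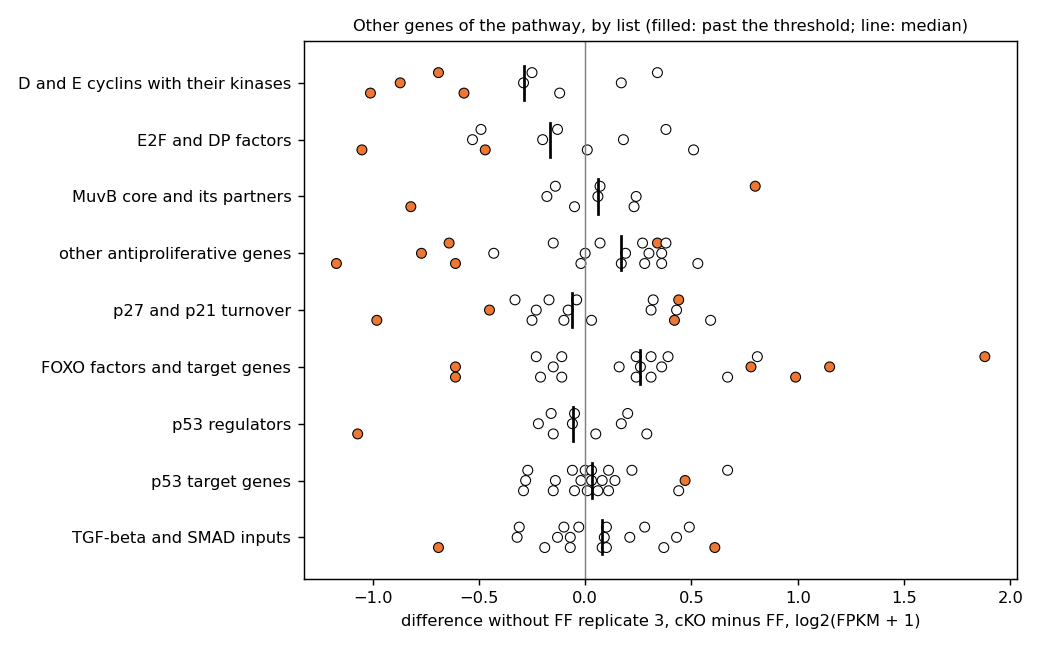
Difference between cKO and FF without FF replicate 3 on the log2(FPKM + 1) scale (horizontal axis) for the other genes of 9 pathway lists, each point 1 gene, filled where the limma adjusted p was under 0.05, with a line at the list median. Filled points of the cyclin list lie at -1.01 to -0.57, and those of the FOXO list reach 1.88.

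The genes most like each member across the 6 libraries were found by Pearson's r on log2(FPKM + 1). They are given as a description with n = 6, since the group difference and FF replicate 3 enter every r. For Ccng2 they were Pigc (0.999) and Klhl38 (0.996), for Gadd45b Nppb and Arhgef6 (0.994 each), and for Rbl2 Tmem159 (0.997) and Pygl (0.996). For Cdkn2d they were Scube2 (0.994) and Snx24 (0.992), for Cdkn1a Vsig10l (0.998) and Polr1h (0.993), and for Rbl1 Yipf5 (0.994) and Hat1 (0.991). An r over 0.95 was reached by 147 of 10971 protein-coding genes with Ccng2. Across the members that count ran from 10 for Cdkn2c to 550 for Rb1, so the genes named are not the only ones with a high r. Rb1 was most like Cdc42bpa and Ankrd28 (0.998 each), Ccng1 was most like Tigd2 and Abcc9 (0.998 each), and Cdkn2c was most like Cltc (0.993) and Taco1 (0.987). With FF replicate 3 left out, r in the pairs named here was 0.982 to 0.999. These pairs were picked for their r over all 6 libraries, and the group difference remains, so this is no separate check.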

How the data were processed

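RNA of whole P1 hearts was measured in 6 libraries, 3 FF and 3 cKO, grouped by their titles. The authors deposited FPKM values per gene in 1 column per library, with gene length (in bases) beside them. Tools listed in the submitters' processing notes are TopHat2 2.0.13, FastQC, featureCounts, Subread and edgeR, and builds listed are mm10, GRCm39 and GRCh38, without roles. Of 52073 gene identifiers shared with GENCODE M21 on GRCm38, 1472 had the same start and end, and 0 of the 10 members did, so gene coordinates follow the deposited table and promoters carry their own build. Strand setting and annotation: not given in the sources used here.

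FPKM times gene length was a whole multiple of 1 step per library (100% of values under 200 reads within 0.1), which gave reads per gene and the totals. Relative to that total, the library size implied by the FPKM was 0.960 to 1.07, which shows a further scaling of unstated method. Replicates of a group differed by more than sampling noise (chi-square per degree of freedom 10.1 to 134).

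The test was limma (3.58.1, R 4.3.3) of group alone on log2 values of FPKM + 1, trend on intensity, Benjamini-Hochberg threshold 0.05, over genes whose mean reached 1 FPKM in the libraries fitted (12678 with all, 12631 without FF replicate 3). Differences are cKO minus FF, and the pseudocount understates those of low genes. The script was tested on simulated data. Kdm5b had an exact permutation test in scipy 1.17.1. The members, lists, motifs and tests were chosen with earlier results of these data known. Named genes were the members, near relatives, the list genes that passed with all libraries (none did), up to 4 per list with the smallest p without FF replicate 3 and the 2 most alike genes per member (those of Cdkn1b are not reported here). Klf2, Foxo6, Pdcd4, Cdkn2a, Cdkn2b, Aktip, Rcbtb2 and Lpar6 were added after their values were seen. So were the named markers of proliferating cells. List members that are among the 10 genes were left out of list counts, and 2 of 144 listed names (Cdt2 and Kpc1) had no row under that name. Alternatives were other pseudocounts, filters and scalings, library weights, a robust prior, a replicate block and leaving out libraries.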

Additional observations from a re-analysis of the deposited data

How the results depend on the processing

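With all 6 libraries, 0 members passed in limma under pseudocounts of 0.1 or 0.5, no filter, median-ratio scaling, a robust prior or the replicate block. The count was 1 (Ccng2) with a filter at a mean FPKM of at least 5, 2 (Ccng2 and Gadd45b) with quantile normalization and with rescaling outside mitochondrial and haemoglobin genes, and 7 with library weights, which gave FF replicate 3 a weight of 0.086 and FF replicate 2 one of 5.69. Leaving out 1 library gave 0 to 6 members, and the 6 came only without FF replicate 3; leaving out any other library gave 0 genes of the whole table. Without FF replicate 3, the count of 6 became 0 with no filter on low values (29067 genes tested, limma adjusted p of Ccng2 0.0515), was 6 with the same genes under the other pseudocounts, scalings and prior, and was 0 to 5 when a further library was left out. It was 7 with library weights, which added Cdkn1a. With the filter at a mean FPKM of at least 5 it was 6, with Cdkn1a passing and Rbl1 below the filter. With a further library left out, FF is left with 1 library in 2 cases, which is assumed to vary like cKO.

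The count of members whose groups do not overlap was 6 to 8 under 3 scalings and without FF replicate 3, and Kdm5b had -0.25 to -0.13 throughout. Directions turned for Rb1 and Ccng1 with library weights (-0.03 and -0.11) and without FF replicate 3; leaving out 1 library gave Rb1 -0.12 to 0.31 and Ccng1 -0.24 to 0.44. With FF replicate 3 left out, a further library left out gave Cdkn2c -0.08 (FF replicate 2) to 0.30 (FF replicate 1). The replicate block gave 0 members with all libraries and 4 without FF replicate 3, against 0 and 6. Libraries of the same number are not said to be paired, and their deviations correlated at 0.383, -0.24 and 0.239, so the numbers are not used as pairs. Depth limits Gadd45b most, with as few as 70 reads in a library.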
